A study of Mus musculus with 64 samples.

Results

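The 10 genes described here are markers and barrier components of brain endothelium, measured in the hippocampus and, for contrast, in the liver of wild-type (WT) and Angelman syndrome (AS) mice given corticosterone (CORT). The members were taken by symbol and were found in both gene tables, as 10 of 55414 gene IDs in the acute table and 10 of 55573 in the continuous table. By role, they were the tight junction genes Cldn5 and Ocln, the efflux transporters Abcb1a and Abcg2, the lipid transporter Mfsd2a, the VEGF receptors Flt1 and Kdr, the adhesion molecule Pecam1, the angiopoietin receptor Tek and the arterial marker Gkn3. All mice were adult F1 hybrid males of 10 to 18 weeks from WT C57BL/6J fathers and 129sv mothers with a paternal Ube3a mutation, and AS mice (Ube3a m-/p+) carried a deletion of exon 5 on the maternal Ube3a copy. Because imprinting silences the paternal copy in neurons only, the AS model lacks UBE3A in neurons, whereas other cell types, endothelium included, keep a paternal copy. In the acute cohort, hippocampal RNA came from 24 mice, with 6 in each combination of genotype and treatment, collected 3 h after mice received 3 mg/kg CORT or its vehicle under the skin. In the continuous cohort, hippocampus and liver came from 20 mice, with 5 per group, after 5 days with a vehicle (cholesterol) pellet or a pellet of 20 mg CORT. Hippocampal libraries H9 (AS vehicle) and H13 (WT vehicle), which the study set aside, were left out, so that the hippocampal vehicle groups of this cohort held 4 mice each.

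Endothelial cells of most brain capillaries seal their contacts with tight junctions, built from claudins and occludin, and pump many lipophilic compounds back into the blood through ATP-binding cassette transporters. Their low rate of transcytosis depends on Mfsd2a, which carries lysophosphatidylcholine with docosahexaenoic acid and keeps vesicle traffic low. Growth and stability of the vessel wall are governed by VEGF acting on KDR, with FLT1 as a high-affinity decoy, and by angiopoietins acting on TEK (TIE2). Glucocorticoids act through the glucocorticoid receptor (GR), a transcription factor present in endothelium, and are known for strengthening the blood-brain barrier in culture and in edema around tumors.

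Positions are those of the GRCm38 build. Cldn5 (ENSMUSG00000041378) lies on the plus strand at chr16:18776847-18778262 as a gene of 1 exon, and Ocln (ENSMUSG00000021638) on the minus strand at chr13:100496507-100552718. Abcb1a (ENSMUSG00000040584) lies on the plus strand at chr5:8660077-8748575, where it overlaps an annotated gene on the opposite strand, and Abcg2 (ENSMUSG00000029802) lies on the plus strand at chr6:58584523-58695676. Abcb1a also has a close paralog, Abcb1b, with which it could share reads, so its counts are uncertain. Mfsd2a (ENSMUSG00000028655) lies on the minus strand at chr4:122946850-122961188 and Gkn3 (ENSMUSG00000030048) on the minus strand at chr6:87383256-87388935. For the receptors, Flt1 (ENSMUSG00000029648) lies at chr5:147561604-147726011 and Kdr (ENSMUSG00000062960) at chr5:75932827-75978458, both on the minus strand. Pecam1 (ENSMUSG00000020717) lies on the minus strand at chr11:106654217-106750628 and Tek (ENSMUSG00000006386) on the plus strand at chr4:94739289-94874976.

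The promoters of 4 members are printed because they passed the test in at least 3 of the 4 hippocampal comparisons of CORT with vehicle, Mfsd2a upward and Kdr, Tek and Gkn3 downward. Each is the 250 bases before the start of the gene in RefSeq on GRCm38.p6, written 5′ to 3′ on the strand of the gene, at chr4:122961189-122961438 (minus) for Mfsd2a, chr5:75978456-75978705 (minus) for Kdr, chr4:94739039-94739288 (plus) for Tek and chr6:87388936-87389185 (minus) for Gkn3. Capitals mark a match, on either strand, to the GR half-site AGAACA, the ETS core CCGGAA or the SOX core ACAAAG.
Mfsd2a: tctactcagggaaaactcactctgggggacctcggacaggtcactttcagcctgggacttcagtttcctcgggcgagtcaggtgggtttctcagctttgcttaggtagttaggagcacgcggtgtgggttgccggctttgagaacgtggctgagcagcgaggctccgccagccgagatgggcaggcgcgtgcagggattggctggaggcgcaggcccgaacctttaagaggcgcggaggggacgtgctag
Kdr: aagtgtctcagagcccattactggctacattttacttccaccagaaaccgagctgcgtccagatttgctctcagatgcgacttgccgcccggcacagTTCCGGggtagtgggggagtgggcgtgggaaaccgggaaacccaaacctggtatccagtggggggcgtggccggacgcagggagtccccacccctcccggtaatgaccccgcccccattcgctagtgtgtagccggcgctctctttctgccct
Tek: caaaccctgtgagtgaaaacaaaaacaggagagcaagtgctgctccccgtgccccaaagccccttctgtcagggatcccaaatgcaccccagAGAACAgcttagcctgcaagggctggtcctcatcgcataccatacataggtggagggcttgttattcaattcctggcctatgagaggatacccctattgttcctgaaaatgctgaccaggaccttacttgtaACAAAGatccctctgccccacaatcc
Gkn3: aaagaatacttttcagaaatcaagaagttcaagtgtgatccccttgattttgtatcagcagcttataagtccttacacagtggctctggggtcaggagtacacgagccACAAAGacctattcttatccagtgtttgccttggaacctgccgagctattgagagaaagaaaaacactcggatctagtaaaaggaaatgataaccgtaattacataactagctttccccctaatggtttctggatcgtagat
None of the 3 motifs occurred in the Mfsd2a promoter. The Kdr promoter held the ETS core on the minus strand (TTCCGG), from 153 to 148 bases before the start. The Tek promoter held the GR half-site 158 to 153 bases and the SOX core 26 to 21 bases before the start, and the Gkn3 promoter held the SOX core 142 to 137 bases before it. RefSeq promoters were matched for 9 of the 10 members, not for Pecam1, with 12 windows in all because Ocln and Abcg2 have more than 1 start, and the GR half-site was found in 1 of the 12, the ETS core in 2 and the SOX core in 3. One of the 3 is the Abcb1a window (chr5:8566841-8567090), which follows the RefSeq start and lies far upstream of the gene start given above. Over all 32841 RefSeq promoters of the same length, these motifs occurred in 16.1%, 12% and 16.5%. The Mfsd2a and Kdr promoters were rich in G and C (61.6% each, with 17 and 16 CpG), the Tek and Gkn3 promoters less so (51.2% and 40.8%, with 2 and 5 CpG), against a median of 52.4% and 6 CpG over all promoters. These are matches of letters in a window of 250 bases, and a missing match says only that these letters are not in that window.

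Libraries held 19049461 to 21052967 counts on genes in the acute hippocampus, 19112929 to 21783009 in that of the continuous cohort and 18612550 to 20868924 in its liver. The 8 acute libraries H17 to H24 held more reads of low alignment quality (2640 to 2850 per library) than the other 16 (1877 to 2237). They comprise all 6 AS mice with CORT and 2 of the 6 AS mice with vehicle, so that this technical difference cannot be told apart from the genotype among the mice with CORT. The known GR target Fkbp5 rose in all 6 comparisons of CORT with vehicle, from 0.58 on the log2 scale in the WT hippocampus after 5 days to 4.14 in the AS liver. Whole-gene counts of Ube3a do not isolate the deleted exon and were 52.5 to 84.7 CPM (the count as a share of the library, scaled by TMM) in the acute hippocampus, without a difference that passed the test between vehicle-treated AS and WT mice (log2 fold change -0.06). In the liver Ube3a was lower in AS vehicle mice (28.5 to 38.6 CPM) than in WT vehicle mice (41.8 to 54.4 CPM), with no overlap. Of 21 pan-endothelial markers other than the 10 members, none was at 0 in a hippocampal library and at most 1 in a liver library, so endothelial RNA was present in both tissues.

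Counts divided by the summed exon length of the gene place the members in order within the hippocampus. In WT mice with vehicle of the acute cohort, Cldn5 was highest with 18.3 ± 4.09 CPM per kb (SD, n = 6), followed by Mfsd2a with 12.5 ± 1.10 CPM per kb. Flt1 (4.48 CPM per kb), Abcb1a (3.84), Pecam1 (2.41), Tek (2.34), Ocln (2.28), Gkn3 (1.42), Abcg2 (1.38) and Kdr (0.986) came after them. Neighbors in this order had overlapping ranges over the 6 mice, except that Mfsd2a stood above Flt1 and Abcg2 above Kdr without overlap. The claudin and the lipid transporter were therefore the members with the highest level per length, and the receptor KDR, known as the main VEGF receptor of endothelium, had the lowest. The continuous cohort again placed Cldn5 (22.1 ± 3.65 CPM per kb, SD, n = 4) and Mfsd2a (10.2 CPM per kb) first and Kdr (1.26 CPM per kb) last.

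The first comparison asked how a single CORT injection changed these genes after 3 h. In WT mice, Mfsd2a rose 1.70-fold and Kdr fell to 0.613 of its vehicle mean, whereas the other 8 members did not pass the test. Mfsd2a ranged from 24.7 to 31.0 CPM in WT vehicle mice (median 27.7) and from 44.8 to 50.1 CPM in WT CORT mice (median 47.7). Every CORT-treated WT mouse thus lay above every vehicle-treated one, and the log2 fold change was 0.77 ± 0.08 (SE, adjusted p = 2.69e-07 with edgeR). Kdr ranged from 6.44 to 10.1 CPM (median 9.15) with vehicle and from 3.81 to 6.15 CPM (median 5.69) with CORT. These groups did not overlap either (log2 fold change -0.71 ± 0.13, adjusted p = 0.00296). Thus 2 of 10 members passed the threshold of 0.05 in WT mice, against 1.48% of the 14611 genes tested, and the median log2 fold change of the members was -0.09 against 0.00 over all genes tested. Tek and Gkn3 had estimates below 0 that did not pass, with log2 fold changes of -0.40 (adjusted p = 0.173) and -0.67 (adjusted p = 0.218).

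In AS mice the same injection was followed by changes in 5 of the 10 members, a rise of Mfsd2a and falls of Kdr, Tek, Gkn3 and Cldn5, against 17.9% of all genes tested, with a median of -0.10 over the members and 0.01 over all genes. Mfsd2a ranged from 20.8 to 29.9 CPM (median 23.01) in AS vehicle mice and from 41.4 to 47.0 CPM (median 45.1) with CORT. It rose 1.86-fold without overlap (log2 fold change 0.89 ± 0.08, adjusted p = 1.19e-08). Kdr ranged from 8.86 to 11.4 CPM (median 9.38) with vehicle and from 3.87 to 7.05 CPM (median 5.19) with CORT, a fall to 0.533 of the vehicle mean (log2 fold change -0.90 ± 0.13, adjusted p = 6.51e-05). Again the groups did not overlap. Tek, the receptor through which angiopoietin 1 stabilizes the vessel wall, ranged from 9.49 to 13.4 CPM (median 10.9) with vehicle and from 7.01 to 8.63 CPM (median 7.86) with CORT. Gkn3, a marker of arterial endothelium in brain, ranged from 1.16 to 1.61 CPM (median 1.30) with vehicle and from 0.477 to 0.980 CPM (median 0.692) with CORT, which corresponds to only 10 to 20 reads in a CORT library. Cldn5, the main claudin of the barrier, ranged from 24.3 to 36.0 CPM (median 26.0) with vehicle and from 15.3 to 24.2 CPM (median 18.9) with CORT. For all 3 genes the CORT mice lay below the vehicle mice without overlap, as the plot of CPM per acute mouse shows. Their log2 fold changes were -0.52 ± 0.13 for Tek (adjusted p = 0.00853), -0.91 ± 0.23 for Gkn3 (adjusted p = 0.00873) and -0.51 ± 0.13 for Cldn5 (adjusted p = 0.00989).

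**Figure D1:**
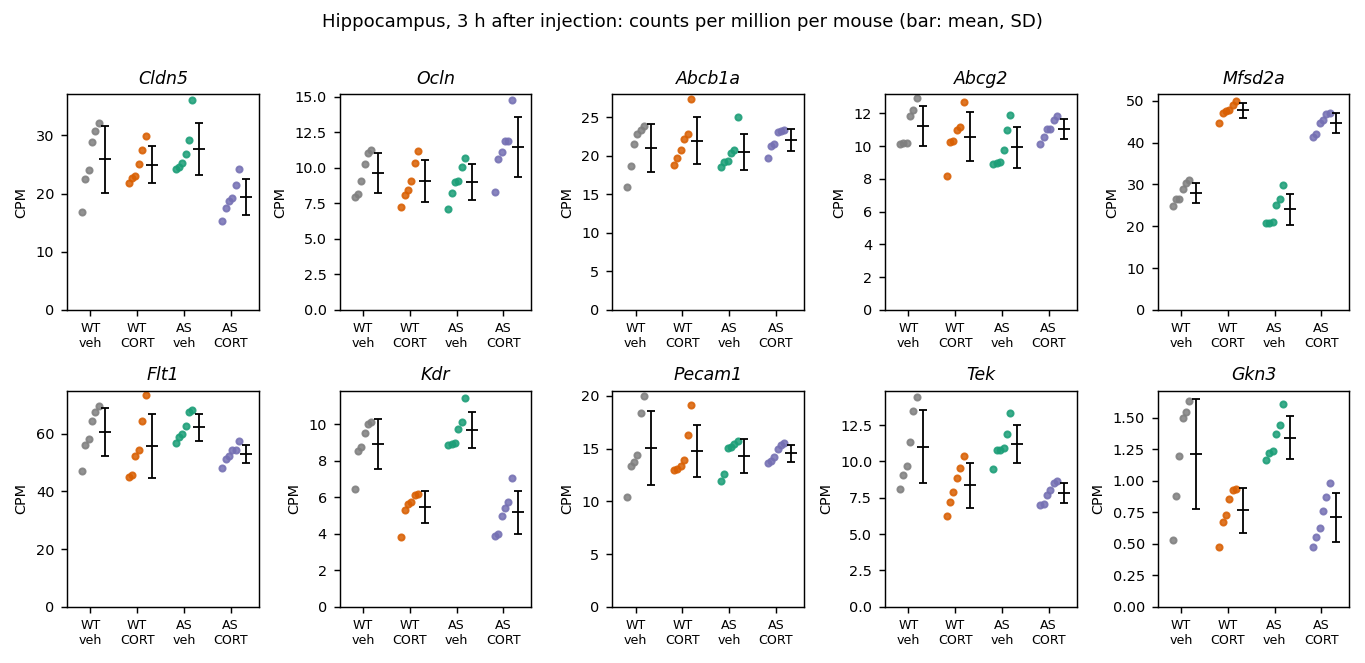
CPM (y axes, from 0) of the 10 genes in the hippocampus 3 h after injection, with one point per mouse, 6 mice in each of the 4 groups on the x axes, and a bar for mean and SD. Mfsd2a was higher and Kdr lower with CORT in both genotypes without overlap, and Cldn5, Tek and Gkn3 were lower without overlap in AS mice.

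The calls in AS mice depended on which vehicle libraries were used. The low-quality covariate used here and below marks libraries H17 to H24 against the others and does not hold the number of low-quality reads. With it, 2 of the 5 members still passed, Mfsd2a (1.09 ± 0.10, adjusted p = 2.08e-07) and Kdr (-0.78 ± 0.18, adjusted p = 0.0283). With only H17 and H18 as vehicle mice, which resemble the CORT mice in low-quality reads, 1 passed, Mfsd2a (1.09 ± 0.08, adjusted p = 1.02e-07). In that comparison Tek (-0.55), Gkn3 (-0.83), Kdr (-0.79) and Cldn5 (-0.36) kept log2 fold changes below 0 with adjusted p from 0.0501 for Kdr to 0.661 for Cldn5. With only the other 4 vehicle mice, an alternative chosen after seeing the data, all 5 passed and so did Ocln (0.40, adjusted p = 0.0369). The part of the technical difference in these falls beyond such values was not tested. Markers of other cell types also differed in level between these groups, with overlap. Oligodendrocyte markers summed to 2484 to 4827 CPM in AS vehicle (median 3628) and 1688 to 3334 CPM in AS CORT mice (median 2394), and neuron markers to 7479 to 8437 CPM (median 8032) and 6542 to 8033 CPM (median 7041). Choroid plexus markers overlapped as well, at 34.0 to 51.5 and 30.2 to 50.1 CPM, while 1 WT vehicle library of this cohort reached 1109 CPM against a group median of 46.4 CPM. The part of these cells in the members' changes was not tested. Fewer endothelial cells and less RNA per cell cannot be told apart in bulk tissue, here or in any result that follows.

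Members that did not pass included the second tight junction gene and both efflux pumps. In AS mice Ocln had a log2 fold change of 0.34 ± 0.13 (adjusted p = 0.0595), with 7.13 to 10.7 CPM in vehicle and 8.27 to 14.8 CPM in CORT mice, which overlapped. Flt1 had -0.23 ± 0.10 (adjusted p = 0.104), and it passed when only the AS mice were fitted (adjusted p = 0.0138). Abcb1a, which encodes the P-glycoprotein pump, had 0.06 ± 0.10 in WT and 0.10 ± 0.10 in AS mice, and Abcg2 had -0.09 ± 0.09 and 0.15 ± 0.09. Pecam1 had -0.02 ± 0.12 and 0.03 ± 0.12, values whose sign changed when single mice were left out.

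The continuous cohort asked whether 5 days of CORT had the same effect. In WT mice 3 of 10 members passed, against 2.92% of the 14949 genes tested, with a rise of Mfsd2a and falls of Tek and Gkn3. In AS mice 5 of 10 passed, against 3.77%, with a rise of Mfsd2a and falls of Gkn3, Tek, Kdr and Cldn5. The median log2 fold change of the members was -0.16 in WT and -0.09 in AS mice, against 0.00 over all genes in both.

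Mfsd2a was 17.2, 20.6, 23.1 and 30.5 CPM in the 4 WT vehicle mice and 34.6, 35.2, 37.6, 39.9 and 41.7 CPM in the 5 WT CORT mice. In AS mice it was 15.2, 17.1, 19.3 and 21.2 CPM with vehicle and 34.9, 35.4, 40.02, 40.5 and 43.4 CPM with CORT. Both pairs of groups were fully separated, with a 1.65-fold rise in WT (log2 fold change 0.72 ± 0.13, adjusted p = 0.00267) and a 2.13-fold rise in AS mice (1.09 ± 0.13, adjusted p = 3.44e-05). Gkn3 was 1.76, 2.25, 2.32 and 2.90 CPM in WT vehicle and 0.699, 0.784, 0.788, 1.06 and 1.48 CPM in WT CORT mice. In AS mice it was 1.68, 2.66, 3.29 and 3.53 CPM with vehicle and 0.465, 0.509, 0.709, 0.835 and 0.893 CPM with CORT. The arterial marker was thus lower in every CORT mouse than in any vehicle mouse of its genotype. Its mean fell to 0.418 of the vehicle mean in WT (log2 fold change -1.25 ± 0.25, adjusted p = 0.0090) and to 0.245 in AS mice (-2.02 ± 0.26, adjusted p = 9.48e-05).

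Tek was 14.8, 14.9, 15.2 and 17.2 CPM in WT vehicle and 8.02, 10.5, 11.3, 11.7 and 12.9 CPM in WT CORT mice. In AS mice it was 13.7, 14.8, 15.1 and 15.4 CPM with vehicle and 8.93, 9.06, 9.25, 9.97 and 11.6 CPM with CORT. Both falls were free of overlap, with log2 fold changes of -0.51 ± 0.11 in WT mice (adjusted p = 0.0102) and, for AS mice, -0.59 ± 0.11 (adjusted p = 0.00256). Kdr was 9.50, 12, 12.9 and 14.9 CPM in AS vehicle and 6.94, 7.47, 7.53, 8.95 and 8.97 CPM in AS CORT mice. It fell without overlap (-0.63 ± 0.16, adjusted p = 0.0277), whereas in WT mice, at 8.59 to 14.4 CPM with vehicle and 7.42 to 10.2 CPM with CORT, the groups overlapped (-0.38, adjusted p = 0.239). Cldn5 was 24.4, 34.9, 38.6 and 40.5 CPM in AS vehicle and 21.7, 22.2, 25.5, 26.4 and 27.0 CPM in AS CORT mice. One vehicle mouse, H2, lay within the CORT group, and the log2 fold change was -0.50 ± 0.13 (adjusted p = 0.0319). In WT mice Cldn5 overlapped between 25.3 to 36.6 CPM with vehicle and 22.7 to 27.1 CPM with CORT (-0.31, adjusted p = 0.234).

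The Cldn5 and Kdr calls in AS mice were fragile, since each was lost in 6 of 18 fits that left out 1 mouse, in both cases without H8, H10, H11, H14, H16 or H19, with adjusted p up to 0.133 and 0.108. When H9 and H13 were put back, Kdr in AS mice (-0.72, adjusted p = 0.106) and Tek in WT mice (-0.52, adjusted p = 0.0542) no longer passed. Neither fold change moved toward 0. The remaining members, Ocln, Abcb1a, Abcg2, Flt1 and Pecam1, had log2 fold changes from -0.20 (Abcb1a in WT) to 0.10 (Abcg2 in AS) and did not pass. Choroid plexus markers varied widely in this cohort, with a summed level over 9 genes of 80.8 to 2961 CPM in WT vehicle mice and 38.7 to 132.7 CPM in WT CORT mice, at most 3 of the 9 being at 0 in a library. In AS mice the same sum was 89.0 to 336.8 CPM with vehicle and 49.0 to 522.7 CPM with CORT, so that the groups overlapped in both genotypes. Other cell types did separate. Mural cell markers summed to 226.3 to 274.6 CPM in WT vehicle and 181.2 to 206.6 CPM in WT CORT mice, and to 216.0 to 249.5 CPM and 173.8 to 214.8 CPM in AS mice, without overlap. In WT mice alone, the sums of 3 further cell types did not overlap. Blood markers were at 40.9 to 58.8 CPM with vehicle and 75.3 to 185.8 CPM with CORT, astrocyte markers at 3649 to 4251 and 3154 to 3442 CPM, and microglia markers at 424.4 to 471.7 and 373.9 to 422.1 CPM. The part of these cells in the members' changes was not tested.

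**Figure D2:**
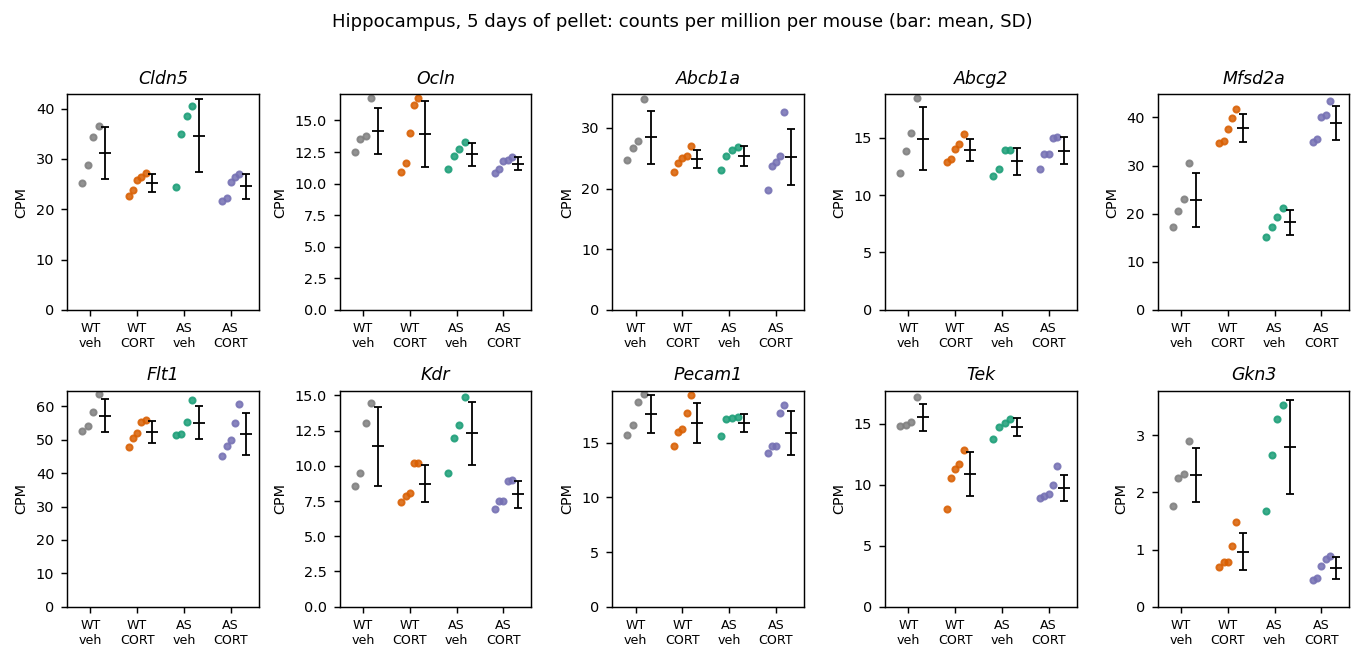
CPM (y axes, from 0) of the 10 genes in the hippocampus after 5 days of vehicle or CORT pellet, with one point per mouse (4 per vehicle group, 5 per CORT group) and a bar for mean and SD. Mfsd2a was higher and Tek and Gkn3 lower with CORT in both genotypes without overlap.

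Between the cohorts, which used separate mice, 1 member passed in the same direction in both for WT mice (Mfsd2a) and 5 for AS mice (Cldn5, Mfsd2a, Kdr, Tek and Gkn3), against 0.333% and 1.68% of the 14419 genes tested in both cohorts. The count of 5 falls to 2 (Mfsd2a and Kdr) with the low-quality covariate in the acute cohort and to 1 (Mfsd2a) with only H17 and H18 as acute AS vehicle mice. The fold change had the same sign in both cohorts for 9 of the 10 members in WT and for 7 in AS mice, against 55% and 58.4% of those genes, and this was not tested. The rise of Mfsd2a was the change shared by both genotypes and both exposures. For comparison, other transport genes of the barrier behaved in different ways. Slc2a1, the GLUT1 glucose transporter, rose after the injection in WT (0.94 ± 0.07, adjusted p = 3.78e-09) and AS mice (0.92 ± 0.07, adjusted p = 2.62e-09). Slc16a1, the monocarboxylate transporter MCT1, fell in all 4 comparisons, by 0.44 and 0.58 on the log2 scale in acute WT and AS mice and by 0.55 and 0.67 after 5 days. Slco1c1, a carrier of thyroid hormone, fell by 0.65 in WT and 0.50 in AS mice after 5 days. Slc22a8, an organic anion carrier, fell by 0.94 and 0.73 in the same comparisons.

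**Figure D3:**
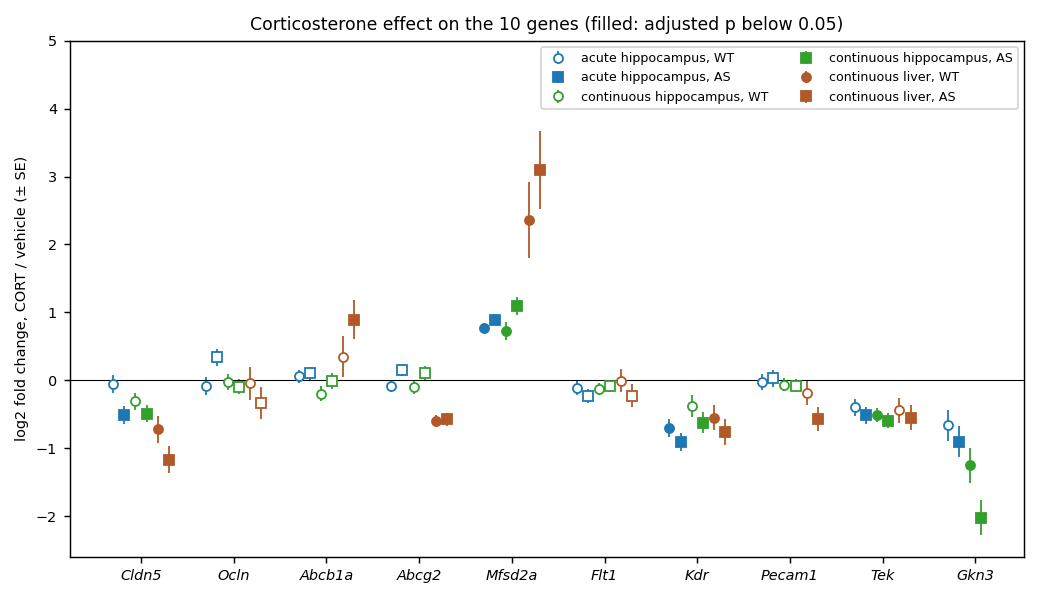
Log2 fold change of CORT over vehicle (y axis, with SE bars) of the 10 genes (x axis) in the acute hippocampus, continuous hippocampus and continuous liver, with circles for WT, squares for AS mice and filled symbols for adjusted p below 0.05. Mfsd2a was above 0 in all 6 comparisons, up to 3.09 in the AS liver, and Gkn3 was lowest at -2.02 in the AS hippocampus after 5 days.

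The members were set against the endothelial signal itself by dividing their CPM by the summed CPM of the 21 pan-endothelial markers, a description chosen after seeing the data and given without a test. That sum was 185.8 to 259.9 CPM in acute WT vehicle and 232.2 to 270.0 CPM in WT CORT mice, and 192.2 to 276.3 CPM in AS vehicle and 193.1 to 218.0 CPM in AS CORT mice. In the continuous hippocampus it was 243.4 to 309.5 CPM with vehicle and 202.1 to 265.0 CPM with CORT in WT mice, and 227.3 to 258.1 and 208.9 to 246.6 CPM in AS mice. The vehicle and CORT groups overlapped in each of these pairs. Relative to that sum, Mfsd2a remained higher with CORT on the log2 scale by 0.64 and 1.03 in acute WT and AS mice and by 0.94 and 1.20 after 5 days, without overlap in any of the 4. Gkn3 was lower by 1.11 in WT and 1.93 in AS mice after 5 days, and Tek by 0.34 and 0.50, all without overlap. After the injection Tek and Gkn3 were lower without overlap in AS mice (by 0.40 and 0.83) but overlapped in WT mice (-0.52 and -0.73). Kdr was lower without overlap after the injection (by 0.84 and 0.81) and overlapped in both genotypes after 5 days (-0.17 and -0.52). Cldn5 overlapped in all 4 comparisons, with differences of -0.16 and -0.40 after the injection and of -0.11 and -0.37 after 5 days in WT and AS mice. The falls of Cldn5 after the injection and of Kdr after 5 days, which were free of overlap in CPM in AS mice, thus were not so on this scale. Abcg2 was higher by 0.20 without overlap in AS mice after 5 days, where its CPM did not pass the test.

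Whether the response differed between genotypes was tested as the interaction, the CORT effect in AS minus that in WT mice. None of the 10 members passed in the acute hippocampus by edgeR or DESeq2 (2 at an unadjusted p under 0.05, smallest adjusted p = 0.132 with edgeR), against 4.49% of all genes. The largest differences there were those of the tight junction genes, with -0.46 ± 0.19 for Cldn5 (adjusted p = 0.132) and 0.43 ± 0.18 for Ocln (adjusted p = 0.149). In the continuous hippocampus 0 of 10 passed by either tool and 0 at an unadjusted p under 0.05, against 0% of all genes with edgeR, where 561 genes had such an unadjusted p. Gkn3 (-0.77 ± 0.37) and Mfsd2a (0.37 ± 0.18) had the largest estimates there, each with adjusted p = 1. In the liver 0 of 9 tested members passed by either tool and 0 at an unadjusted p under 0.05, against 0% of all genes with edgeR. A member that passed in one genotype and not in the other was thus not shown to respond differently.

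Genotype alone was compared within each treatment. With vehicle, 0 of 10 members passed in the acute hippocampus (by edgeR or DESeq2, with 1 at an unadjusted p under 0.05, Mfsd2a), against 0.157% of all genes. Mfsd2a had a log2 fold change of -0.22 (adjusted p = 0.301) there, and it passed with only H17 and H18 as AS vehicle mice (-0.41, adjusted p = 0.017). Likewise 0 of 10 passed in the continuous hippocampus (1 unadjusted, 0 by DESeq2) against 0.0134%, and 0 of 9 in the liver (2 unadjusted, 0 by DESeq2) against 0.0163%. With CORT, 1 of 10 passed in the acute hippocampus, against 24.9% of all genes. Cldn5 was 21.8 to 29.9 CPM in WT CORT (median 23.99) and 15.3 to 24.2 CPM in AS CORT mice (median 18.9), which overlapped (log2 fold change -0.37 ± 0.13, adjusted p = 0.0439). The call was lost in 8 of 24 fits without 1 mouse (H5, H7, H8, H9, H19, H20, H21 or H22, adjusted p up to 0.104). It was also lost with the low-quality covariate (-0.13, adjusted p = 0.973) and with GC content and length trends removed (-0.20, adjusted p = 0.235). Vessel markers were lower in the same AS CORT mice without overlap, with pan-endothelial sums of 232.2 to 270.0 CPM in WT CORT and 193.1 to 218.0 CPM in AS CORT mice, venous sums of 77.23 to 90 and 64.8 to 76.95 CPM and barrier transport sums of 1536 to 1670 and 1428 to 1501 CPM. Their part in the Cldn5 difference was not tested. After 5 days of CORT, 0 of 10 passed in the hippocampus (1 unadjusted, 0 by DESeq2) against 0.0401%, and 0 of 9 in the liver (1 unadjusted, 0 by DESeq2) against 0.277%.

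Liver served as contrast because its sinusoidal endothelium is fenestrated and forms no such barrier, while hepatocytes express several of the same transporters. Gkn3 had 0 counts in 20 of 20 livers, which allows 3 counts per library or 0.144 to 0.160 CPM. With CPM scaled within each tissue, hippocampal WT vehicle mice had a mean of 2.31 CPM, 15.5-fold higher than the mean floor of the WT vehicle livers. That ratio is no bound under TMM over both tissues, used for the other 9 members, where liver values lie higher than by library totals. The other 9 members all differed between the tissues of WT vehicle mice, but so did 89.6% of the 15937 genes tested, and the median log2 difference of liver minus hippocampus over all of them was -0.16. The members lower in liver were Abcb1a, by 2.34 on the log2 scale, Flt1 by 1.57 and Cldn5 by 1.42. Abcg2 was higher in liver by 3.48, Kdr by 2.80, Ocln by 1.49 and Mfsd2a by 1.36 (adjusted p = 0.00613). Pecam1 (0.43, adjusted p = 0.0114) and Tek (0.39, adjusted p = 0.0202) were higher in liver with TMM scaling but lower by library totals with no scaling factors (-0.43 and -0.46), a setting chosen after seeing the data. It moved the median of all genes to -1.02 and the genes called from 6657 higher and 7615 lower in liver to 4162 higher and 10282 lower, and Mfsd2a did not pass in it (0.50, adjusted p = 0.292), while the other 6 members kept their direction and call. Their differences moved to -3.20 for Abcb1a, -2.43 for Flt1, -2.28 for Cldn5, 2.62 for Abcg2, 1.94 for Kdr and 0.63 for Ocln. Tek also no longer passed with DESeq2 or with its size factors in place of TMM, nor, with TMM, with no filter on low counts or without liver L1 or L17. Mfsd2a did not pass without L1 (adjusted p = 0.0564). Within a tissue, levels per length do not depend on that scaling. The VEGF receptors stood in opposite order in the tissues, with Flt1 at 4.24 and Kdr at 1.26 CPM per kb in the hippocampus and Flt1 at 0.767 and Kdr at 4.70 CPM per kb in the liver. The efflux pumps did as well, with Abcb1a at 5.20 and Abcg2 at 1.83 CPM per kb in the hippocampus and 0.549 and 11 CPM per kb in the liver.

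**Figure D4:**
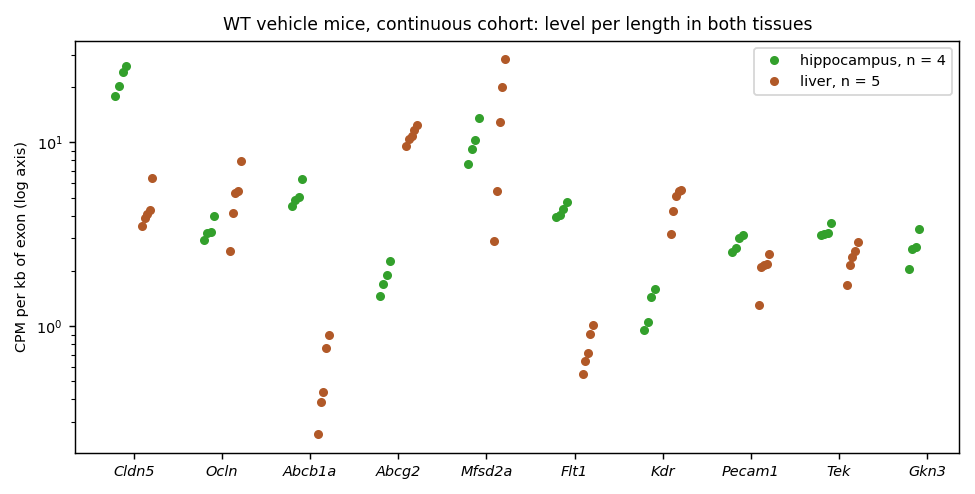
Level per summed exon length (CPM per kb, log axis) of the 10 genes (x axis) in hippocampus (4 mice) and liver (5 mice) of WT vehicle mice, with CPM scaled within each tissue, one point per library and no point for Gkn3 in liver, where all counts were 0. Flt1 and Abcb1a lay higher in hippocampus and Kdr and Abcg2 higher in liver.

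After 5 days of CORT, 4 of 9 tested members passed in the WT liver, against 18.6% of all 12273 genes, and 7 of 9 in the AS liver, against 27.5%. The median log2 fold change of the members was -0.19 in WT and -0.55 in AS livers, against 0.00 over all genes in both. Mfsd2a was 6.57, 12.2, 29.2, 45.1 and 63.6 CPM in WT vehicle livers and 119, 130, 168, 182 and 205 CPM with CORT. In AS livers it was 3.89, 14.8, 15.1, 20.3 and 59.1 CPM with vehicle and 110, 164, 208, 218 and 267 CPM with CORT. The lipid transporter rose in both genotypes without overlap although vehicle livers varied widely, 5.13-fold in WT (log2 fold change 2.36 ± 0.56, adjusted p = 0.00501) and 8.54-fold in AS mice (3.09 ± 0.58, adjusted p = 0.000441). Without L2, the AS vehicle liver with 59.1 CPM, the latter log2 fold change was 3.84. Abcg2, which exports urate and xenobiotics, was 78.3, 85.3, 88.0, 95.04 and 102 CPM in WT vehicle livers and 52.9, 54.5, 58.4, 61.1 and 68.8 CPM with CORT. In AS livers it was 69.8, 75.2, 90.05, 90.1 and 94.3 CPM with vehicle and 52.0, 54.0, 55.2, 59.6 and 60.6 CPM with CORT. It fell without overlap in both genotypes (-0.60 ± 0.09, adjusted p = 0.000107, and -0.58 ± 0.09, adjusted p = 9.85e-05).

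Cldn5 was 6.45, 7.36, 7.91, 9.50 and 10.7 CPM in AS vehicle livers and 2.55, 3.74, 3.85, 4.09 and 4.40 CPM with CORT. This was a fall to 0.444 of the vehicle mean without overlap (-1.17 ± 0.20, adjusted p = 0.000196). In WT livers Cldn5 was 4.96, 5.52, 5.78, 6.03 and 9.04 CPM with vehicle and 2.71, 3.02, 3.86, 3.90 and 5.49 CPM with CORT, which overlapped (-0.72 ± 0.20, adjusted p = 0.0155, and 0.0537 without L6). Kdr fell in WT (-0.55 ± 0.19, adjusted p = 0.0429) and AS livers (-0.76 ± 0.19, adjusted p = 0.00431), with overlap in both, and its WT call was lost in 8 of 20 fits without 1 liver (L1, L3, L5, L6, L14, L15, L17 or L20, adjusted p up to 0.102). In AS livers Pecam1 (-0.57 ± 0.18, adjusted p = 0.0244) and Tek (-0.55 ± 0.18, adjusted p = 0.0285) fell as well. Abcb1a was 2.65, 2.90, 3.73, 5.32 and 5.39 CPM in AS vehicle livers and 4.07, 7.27, 7.28, 8.49 and 9.93 CPM with CORT. One CORT liver, L18, lay within the vehicle range, and the rise passed the test (0.89 ± 0.29, adjusted p = 0.0255). The Abcb1a call was lost without L8, L11, L14 or L19 (adjusted p up to 0.0736), and the Pecam1 and Tek calls without L7, L8, L9, L11 or L18 (up to 0.0707 and 0.101).

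Markers of several cell types were compared in the same livers, where 9.9% of all genes tested fell in WT and 15% in AS mice. Of 19 tested pan-endothelial genes, 3 fell in WT, a share near that of all genes, and 14 fell in AS livers and none rose in either, and the summed level went from 171.8 to 227.3 CPM with vehicle to 151.0 to 212.2 CPM with CORT in WT and from 201.4 to 275.6 CPM to 148.3 to 215.5 CPM in AS livers. Of the 12 markers of liver sinusoidal endothelium, 2 fell in WT livers, again near the share of all genes, and 8 in AS livers. Of 8 tested markers of microglia, which other macrophages share, 6 fell in either genotype, with sums of 96.8 to 118.2 CPM with vehicle and 59.6 to 81.6 CPM with CORT in WT and of 120.1 to 170.9 and 59.8 to 82.5 CPM in AS livers. The summed level of 10 arterial markers was 18.3 to 31.1 CPM with vehicle and 35.9 to 49.03 CPM with CORT in WT and 20.03 to 28.7 and 36.4 to 46.1 CPM in AS livers, higher with CORT without overlap, but of the 4 that were tested only Alpl passed (1.06 and 1.12). Blood markers were lower without overlap, at 342.6 to 573.5 CPM with vehicle and 228.6 to 327.9 CPM with CORT in WT and at 243.1 to 474.6 and 124.4 to 192 CPM in AS livers. Markers of meninges and fibroblasts were higher without overlap, at 306.4 to 406.6 and 450.9 to 519.7 CPM in WT and at 332.8 to 418.5 and 450.7 to 485.3 CPM in AS livers. Relative to the pan-endothelial sum, Mfsd2a was still higher with CORT by 3.04 in WT and 4.11 in AS livers on the log2 scale without overlap, and Abcb1a by 1.47 and Flt1 by 0.35 in AS livers without overlap. The ranges of that sum were themselves lower with CORT, and hepatocytes express several of these transporters, for which the ratio is no level per endothelium. Abcg2 fell without overlap in CPM in both genotypes, but on the ratio scale the groups overlapped for each of the members that fell. Cldn5 had differences of -0.46 in WT and -0.59 in AS livers, Kdr of -0.26 and -0.22, and Abcg2 of -0.32 and 0.01. Pecam1 and Tek had 0.02 and 0.04 in AS livers. The part of these cell types in the liver falls was not tested.

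**Figure D5:**
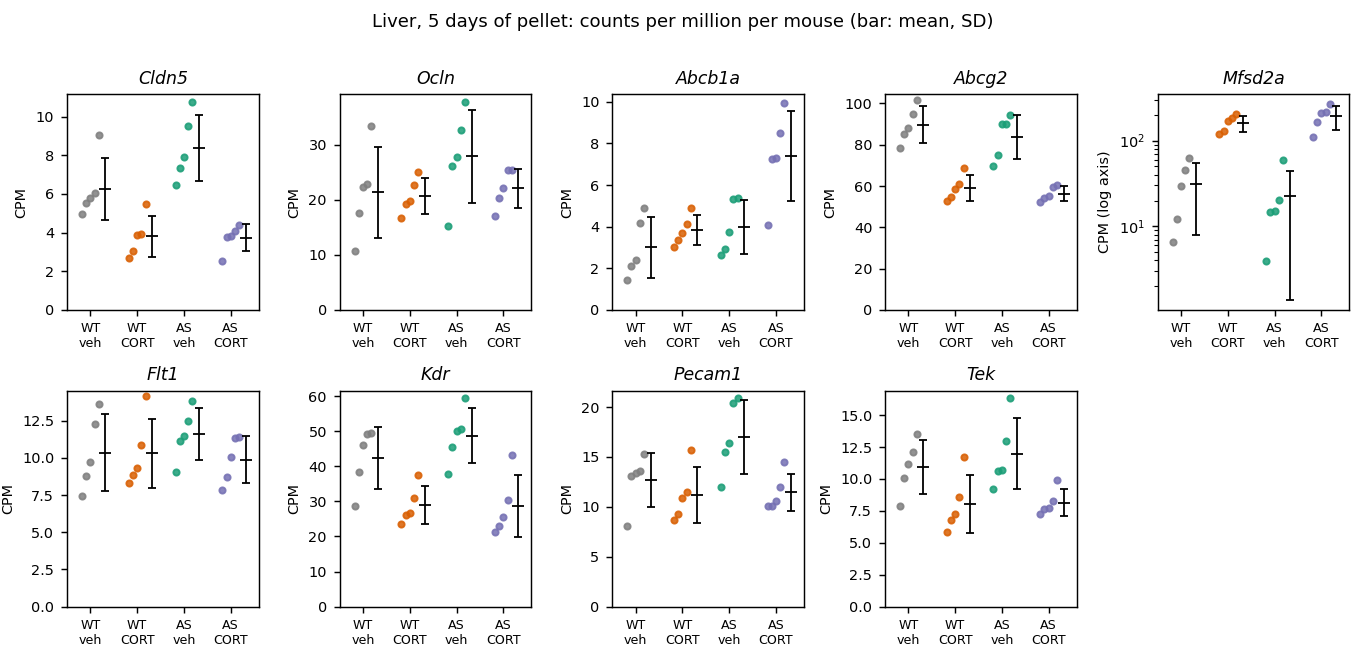
CPM (y axes, from 0, with a log axis for Mfsd2a only) of the 9 genes detected in liver after 5 days of vehicle or CORT pellet, with one point per mouse, 5 mice per group and a bar for mean and SD. Mfsd2a was higher and Abcg2 lower with CORT in both genotypes without overlap, and Cldn5 was lower without overlap in AS mice.

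The CORT effect was tested against tissue, averaged over genotype, as liver minus hippocampus in the continuous cohort. Of 9 members, 4 passed, against 19.9% of all genes (1749 higher and 1427 lower, or 1036 and 2397 by library totals, where the same 4 members passed). Mfsd2a rose more in liver, by 1.84 on the log2 scale (adjusted p = 0.0017), and Abcb1a had a difference of 0.75 (adjusted p = 0.0129). Abcg2, which fell in liver and did not pass in the hippocampus, had a difference of -0.56 (adjusted p = 7.23e-05), and Cldn5 fell more in liver (-0.52, adjusted p = 0.0253). The VEGF receptors, Tek, Pecam1 and Ocln did not pass.

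Other genes of these pathways were followed by lists, whose counts stand against the shares of all genes tested. Those were 1.06% higher and 0.417% lower in acute WT mice, 8.25% and 9.62% in acute AS mice, 0.803% and 2.11% after 5 days in WT mice and 2.03% and 1.75% in AS mice. In acute AS mice the list calls depended on the vehicle libraries as the members' calls did. With the low-quality covariate or with only H17 and H18 as vehicle mice, alternatives applied to these lists after seeing the data, only 3 genes of the junction, barrier transport, Wnt, VEGF and angiopoietin and pan-endothelial lists passed (Slc2a1, Slc16a1 and Slc19a3, all of barrier transport). Of 12 junction genes, 0 passed after the injection in WT mice with edgeR (3 at an unadjusted p under 0.05) and 3 fell in AS mice, among them Jup (plakoglobin, -0.64 ± 0.12, adjusted p = 0.000673) and F11r (JAM-A, -0.39). After 5 days 2 fell in WT, Cdh5 (VE-cadherin, -0.51) and Jam2 (-0.35), and 1 in AS mice, Jam2 (-0.28). Of 18 barrier transport genes, 1 rose and 1 fell in acute WT mice, 3 rose and 6 fell in acute AS mice, 7 fell after 5 days in WT mice, and 1 rose and 5 fell in AS mice. The falls after 5 days included Slc38a5, a glutamine carrier (-0.87 in WT and -0.89 in AS mice), and Slc40a1, the iron exporter ferroportin (-0.73 and -0.56). No other list of vessel genes held as many calls in the hippocampus after 5 days.

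Of 15 genes of the Wnt signal that maintains the barrier, 2 rose and 1 fell in acute WT and 3 rose and 4 fell in acute AS mice. The receptor Fzd4 rose in both (0.41 and 0.45) and the ligand Wnt7a fell in both (-0.48 and -0.57). The target gene Apcdd1 alone passed after 5 days, falling in WT (-0.39) and AS mice (-0.55). Of 16 tested ligands, receptors and effectors of VEGF and angiopoietin signaling, 0 passed with edgeR in acute WT mice (2 at an unadjusted p under 0.05) and 1 rose and 4 fell in acute AS mice. The TEK ligand Angpt1 rose (0.48 ± 0.11, adjusted p = 0.00415), and the endothelial TGF-beta coreceptor Eng (-0.54) and the ligand Vegfb (-0.36) fell. With the low-quality covariate these 3 were at 0.27, -0.27 and -0.05 and did not pass (adjusted p from 0.53 to 0.96). After 5 days 1 fell in WT (Ptprb, the phosphatase that acts on TEK, -0.41) and 3 in AS mice, among them Vegfc (-0.85) and Nos3 (-0.48). In the liver 2 fell in WT and 8 in AS mice, against the 9.9% and 15% of all genes that fell there, with the coreceptor Nrp1 lowest (-1.66 and -2.03) and Tie1, the partner of TEK, next in WT mice (-0.76).

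Pan-endothelial markers gave a measure of the vessel signal in the hippocampus. Of 20 tested, 2 rose and 0 fell in acute WT mice, 1 rose and 5 fell in acute AS mice, and 2 and 3 fell after 5 days in WT and AS mice, with median log2 fold changes of -0.01, -0.18, -0.26 and -0.26. Of the arterial markers, Alpl fell after 5 days in WT (-0.50) and AS mice (-0.66), and of the venous markers Vcam1 fell (-0.84 and -0.58). Gkn3 thus fell beside 1 of 9 tested arterial markers, and its log2 fold changes of -1.25 and -2.02 were further from 0 than that of Alpl.

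Among mice of one group, the members varied together to different degrees. After removal of group means, the 45 pairs had a median Pearson r of 0.292 over 24 acute mice, from -0.146 (Gkn3 and Cldn5) to 0.809 (Flt1 and Abcb1a), and 37 were above 0. In the continuous hippocampus the median was 0.393 over 18 mice, from -0.33 (Abcg2 and Kdr) to 0.827 (Cldn5 and Kdr). In the liver the 36 pairs had a median of 0.187 over 20 mice, from -0.618 (Ocln and Mfsd2a) to 0.892 (Tek and Pecam1). Each point is a library, so the pairs share its depth and its endothelial content, and the values are descriptions. The genes most like the mean of the members in the acute cohort included Arhgap29 (r = 0.859), Slc1a3 (0.792), Asrgl1 (0.787) and Lamb2 (0.785). In the continuous hippocampus they were Zc3h7b (0.854), Prkch (0.851), AC163221.1 (0.838), Ccdc85c (0.835) and Epas1 (0.834).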

How the data were processed

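Hippocampal and liver RNA-seq libraries of 24 acute and 20 continuous mice were used, 64 in all, since each continuous mouse gave both tissues, and were grouped by the labels. The authors deposited raw counts per gene, made from stranded mRNA reads with STAR (mm10) and HTSeq-count. The annotation release and use of strand are not given in the sources used here. A gene was tested if 3 replicates of any group had normalized counts above 20, the rule stated in the study, applied here with DESeq2 size factors, so that the liver genes kept can differ from those of the study. The test was edgeR's (4.0.16) quasi-likelihood F test (R 4.3.3, TMM, one coefficient per group), with Benjamini-Hochberg adjustment over all genes tested and a threshold of 0.05. SE is the log2 fold change divided by the root of F. CPM were scaled by TMM, with a prior count of 2 on the log2 scale. DESeq2 1.42.0 was an alternative. Members and lists were chosen with earlier results of these data known, and the named list genes were those past the threshold with the smallest adjusted p, with some further genes chosen after their values were seen. The scripts were tested on simulated data. A floor of 3 counts covers counting error only. Columns of no sample numbered 0. One gene most like the members is not reported here.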

Additional observations from a re-analysis of the deposited data

Results flagged for a closer look

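Among 116 groups of 4 to 6 mice, 5 had a mouse far from the others of its group by Dixon's test, which by chance marks about 1 in 20 groups. These were Abcb1a in acute AS vehicle library H15 (25.0 CPM, group median 19.9), Kdr in acute WT CORT library H11 (3.81 CPM, median 5.69), Pecam1 in continuous hippocampal AS vehicle library H2 (15.6 CPM, median 17.2), Tek in continuous hippocampal WT vehicle library H4 (17.2 CPM, median 15.04) and Cldn5 in WT vehicle liver L6 (9.04 CPM, median 5.78).

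For 4 members there was a CORT effect that differed between liver and hippocampus by the edgeR test of that difference over 38 libraries, as liver minus hippocampus on the log2 scale. They were Mfsd2a (1.84, adjusted p = 0.0017), Abcb1a (0.75, adjusted p = 0.0129), Abcg2 (-0.56, adjusted p = 7.23e-05) and Cldn5 (-0.52, adjusted p = 0.0253).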

How the results depend on the processing

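For the responses to CORT of each member and its other named values, 425 values under planned and added alternatives kept direction and side of the threshold, 17 lost a call, 3 gained one and 6 turned direction. Of these, Pecam1 (-0.43) and Tek (-0.46) in liver against hippocampus turned by library totals with no scaling factors, and 4 were uncalled values near 0, Pecam1 with acute CORT in AS mice (-0.069 with the low-quality covariate, -0.073 with only H17 and H18 as vehicle mice), Ocln with continuous CORT in the WT hippocampus (0.010 with GC and length trends removed) and Flt1 with CORT in WT liver (0.044 likewise). Of 495 further values of members that did not pass in the main fit, most of them not printed in the text, 25 turned. Of these, 5 were in AS against WT with acute CORT under the covariate. The 25 values were at most 0.12 in size before and 0.19 after (adjusted p of at least 0.51). Leaving out 1 mouse turned further uncalled values, with log2 ranges of -0.15 to 0.017 for Cldn5, -0.014 to 0.10 for Abcb1a and -0.11 to 0.075 for Pecam1 (acute CORT, WT), -0.021 to 0.056 for Pecam1 (acute CORT, AS), -0.099 to 0.072 for Ocln and -0.19 to 0.023 for Abcg2 (continuous CORT, WT hippocampus), -0.12 to 0.065 for Abcb1a (AS hippocampus), and -0.22 to 0.17 for Ocln and -0.16 to 0.11 for Flt1 (WT liver).

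Counts of members past the threshold moved as follows, and the cause was not tested. Acute CORT in AS mice gave 5, but 2 with the low-quality covariate, 1 with only H17 and H18, where fewer mice were used, and 6 with only the 2 groups compared (Flt1 gained) or only H13 to H16 (Ocln gained). AS against WT with vehicle gave 0, and 1 with only H17 and H18 (Mfsd2a). AS against WT with CORT gave 1, 2 with DESeq2, 0 with GC and length trends removed, 0 with the covariate, and 0 to 2 without 1 mouse. Without 1 mouse, the AS response to 5 days of CORT gave 3 to 5 (hippocampus) and 4 to 7 (liver), CORT in WT liver 2 to 5, and acute CORT 2 to 3 in WT mice. Mfsd2a in liver against hippocampus was lost without L1 (adjusted p = 0.0564) and by library totals (0.292). With only the 2 groups compared, Tek in WT and Cldn5 in AS mice (continuous hippocampus) were lost.

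Over all genes, counts changed by more than 1.5 times as follows. In the acute hippocampus, CORT in AS mice called 2612 genes, but 150 with the covariate, 130 with only H17 and H18, 4420 with only H13 to H16 and as few as 1533 without 1 mouse. AS against WT with CORT called 3645, and 0 with the covariate. The interaction called 656, but 1143 with DESeq2, 297 without a filter, 0 with trends removed, 1 with the covariate, 0 with H17 and H18, 2808 with H13 to H16 and 0 to 1563 without 1 mouse. AS against WT with vehicle called 23, but 99, 3 (only these groups), 204 (H17 and H18), 15 (H13 to H16) and 7 to 51. CORT in WT mice called 216, and 137 with only these groups. In the continuous hippocampus CORT called 436 genes in WT mice, 274 with only these groups, 180 with all 20 mice and 252 at fewest without 1 mouse, and 564 in AS mice, 220 with all 20 mice and 362 at fewest. AS against WT called 6 with CORT (44 with DESeq2, 12, 0 with all mice, 1 to 16) and 2 with vehicle (18, 5 without a filter, 1, 0 and 1 to 6). In liver it called 34 with CORT (93 with DESeq2, 13 to 62) and 2 with vehicle (44, 0 and 1 to 4), and the interaction 0 (9 with DESeq2, 2 without a filter, up to 1 without 1 mouse).

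A fit with the mouse as replicate block was made for the tissue comparisons, where it called 9 and 4 members, as without the block. The replicate numbers were not shown to pair the samples, since the correlation of deviations of hippocampus and liver of the same number was -0.05 to 0.07 over 18 mice, with 0 above 0.1. Depth limits Gkn3 most, with 10 to 77 counts per hippocampal library.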

Other observations

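Hippocampal libraries H9 and H13, set aside in the fits, differed from the others of their groups in several marker sums. H9 had a summed pan-endothelial level of 325.9 CPM and a mural level of 344.9 CPM, each above every AS vehicle library kept, with Abcb1a at 42.7 CPM, Cldn5 at 48.0 CPM, Tek at 22.1 CPM and Gkn3 at 5.33 CPM. H13 had a choroid plexus level of 13480 CPM, while its pan-endothelial level (286.1 CPM) lay within the 243.4 to 309.5 CPM of the WT vehicle libraries kept, with Kdr at 22.02 CPM and Ocln at 22.5 CPM. Neuron markers summed to 5168 CPM in H9 and 3505 CPM in H13, below the 6931 to 7816 and 6577 to 7105 CPM of the AS and WT vehicle libraries kept, and blood markers to 222.5 and 244.7 CPM, above their 53.1 to 118.1 and 40.9 to 58.8 CPM. Mfsd2a was 17.2 CPM in H9 and 15.9 CPM in H13, below all CORT-treated hippocampal libraries of the cohort.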
